A study of Caenorhabditis elegans with 12 samples.

Results

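Retained introns shorter than 60 nt were followed in whole Caenorhabditis elegans larvae, as wild type and as mutants of either of 2 spliceosomal helicases. The authors' Ensembl archive 65 catalogue listed 879 retained introns over 12 libraries, and 418 of them were 20 to 59 nt long, measured as the gap between both exons of the spliced form. No 2 of these 418 events had the same intron, so each was counted once, and the 461 retained introns of 60 nt or more served for comparison. Retention is the deposited score of the form that keeps the intron over the sum of both forms' scores, in percent. Both scores together often came to less than 1000 per mille, and to at least 500 in all 12 libraries for 341 of the 352 introns listed in all of them. What the missing part holds is not stated, so retention is a share of the 2 listed forms and not of all molecules.

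The libraries came from L3 whole worms grown for 34 hours at 20 °C after embryos were isolated by bleaching, and were ribosomal RNA-depleted and read as 150-nt pairs. There were 4 groups of 3 libraries. Wild-type N2 libraries az021 to az023 (N2 az02) were set against sacy-1(tn1385), titled dg3430, and N2 libraries az041 to az043 (N2 az04) against mog-5(az192), titled sz454. The labels do not say which N2 set belongs to which mutant, so the library numbers in the titles were used. All 12 libraries were of the same stage, and no agent was given to any group. Nothing in the labels says that replicates are separate cultures, so each p-value measures the spread between libraries, which may be technical. In bulk RNA from whole larvae, a change in splicing within cells and a change in which cells express a gene cannot be told apart.

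Introns are removed in 2 cuts, at the 5′ splice site or donor and at the 3′ splice site or acceptor, and an intron left in the RNA can change or interrupt the protein read from it. Nematode introns are unusually short, many lying close to the lowest length at which a spliceosome can fit both sites. The helicase SACY-1 corresponds to human DDX41, a spliceosome component, and MOG-5 to PRP22, which proofreads the joining of exons and releases the spliced mRNA. Introns are named below by chromosome, strand and position on genome build ce10, since the files pair no gene names with the events.

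The short introns had a median length of 47 nt, and the commonest length was 48 nt, with 39 introns. Of the 418, 237 were 45 to 54 nt long, 74 were shorter than 40 nt, and 215 lay on the plus strand and 203 on the minus strand. Chromosome V held 84, II 74, IV 70, I 69, III 64 and X 57. In all 12 libraries 352 were listed, 66 were missing from at least 1 library and 16 were listed in under 6. Listing differed between the sets, with 366 to 377 short introns in an N2 az02 library, 383 to 388 in a sacy-1 library, 404 to 410 in an N2 az04 library and 400 to 406 in a mog-5 library. The sources used here do not say what decides whether an event is listed, and the number of reads behind a value is unknown.

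Most short introns were either nearly always spliced or nearly always kept. Over the 352 introns listed in all 12 libraries, median retention was 40.2%. Mean retention over the 12 libraries was under 5% in 70 of them, 5 to 25% in 85, 25 to 75% in 46, 75 to 95% in 26 and at least 95% in 125. Of the 421 longer retained introns listed in all 12, 10.9% stood under 5% and 37.5% at 95% or more, against 19.9% and 35.5% of the short ones, and the median was 54.03%. A value of exactly 99.9% in all 12 libraries was found for 71 short introns and 87 longer ones, and a value of 0.1% in all 12 for 0 of either. The sources used here do not explain why values pile up at exactly 0.1% and 99.9%.

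Low retention was seen from 40 nt upwards and in no shorter intron, a limit that was chosen after the values were seen. All 74 introns under 40 nt had a mean retention of at least 89.2%, and 94.3% of their 828 library values stood at 99.9% or above. The lowest was a 39-nt intron on chromosome III, plus strand, 5315731 to 5315769, with a mean of 89.2% and a lowest library value of 73.1%. Of the 344 introns of 40 to 59 nt, 224 had a mean under 75%. Among those listed in all 12 libraries, the median was 99.9% for 58 introns under 40 nt, 44.98% for 54 of 40 to 44 nt, 23.9% for 70 of 45 to 47 nt and 9.58% for 69 of 48 to 50 nt. It was 32.6% for 65 introns of 51 to 54 nt and 14.7% for 36 of 55 to 59 nt, so retention did not fall steadily with length above 40 nt. A 40-nt intron was the shortest with a low mean, at 9.13% (chromosome II, plus strand, 4521224 to 4521263), but 3 of the 4 introns of 40 nt listed in all 12 libraries stood at 95% or more. From 41 to 44 nt the median varied between lengths, at 10.1% for 10 introns of 41 nt, 61.7% for 12 of 42 nt, 8.94% for 15 of 43 nt and 86.9% for 13 of 44 nt.

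**Figure D1:**
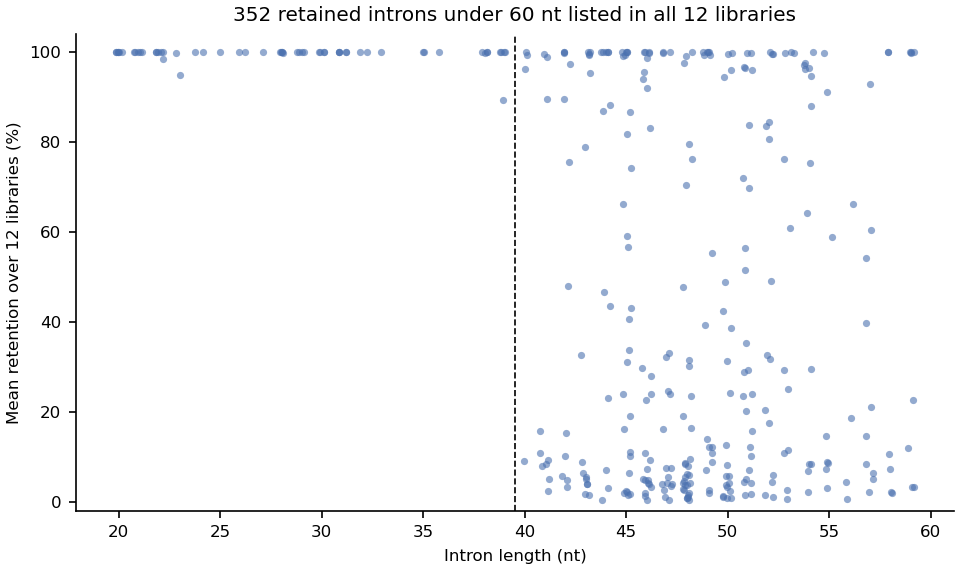
Mean retention over 12 libraries (y axis, %) against intron length (x axis, nt, points spread sideways to show overlap) for the 352 short introns listed in all 12 libraries; the dashed line lies between 39 and 40 nt. Left of it every point is at 89.2% or higher, and right of it points cover the whole range.

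The shortest introns stood at or close to the 99.9% level in each group. All 6 introns of 20 nt had means of 99.9%, and 4 of them stood at 99.9% in all 12 libraries. The other two departed in 1 library each, to 99.7% in mog-5 replicate 2 on chromosome IV (minus strand, 10695386 to 10695405) and to 99.94% in sacy-1 replicate 3 on chromosome III (plus strand, 5716948 to 5716967). The last of these was also among the 5 highest means, with introns of 26 nt on X (16380815 to 16380840), 31 nt on IV (11147575 to 11147605), 31 nt on V (20267442 to 20267472) and 40 nt on III (4194990 to 4195029). The highest mean was 99.91%, and 71 short introns stood at exactly 99.9% in all 12 libraries, so this ranking hardly sets the 5 apart. Whether such annotated gaps are ever removed as introns cannot be read from these scores.

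Length in multiples of 3, which leaves the reading frame open across a kept intron if it holds no stop codon, was found in 39.49% of the 352 introns and 39.43% of the longer ones. By mean retention in N2 it was 56.3% of the 48 introns at 25 to 75% and 32.3% of the 124 at 95% or more. In the 40 to 59 nt range, introns of such a length had a median retention of 23.9% and the others 21.5%. At the length limit itself, the 8 introns of 59 nt listed in all 12 libraries had means from 3.27% to 99.9%, and the 9 of 60 nt, just outside, from 3.11% to 99.9%.

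Mean retention over the 352 introns barely differed between the groups. In N2 az02 it was 50.9%, 50.4% and 50.8% in the 3 libraries, and in sacy-1 50.63%, 51.04% and 50.63%, so both ranges overlapped. In N2 az04 it was 51.1%, 50.5% and 51.1%, and in mog-5 51.5%, 51.4% and 51.2%, where each mog-5 library lay above each N2 az04 library. The group means were 50.7% ± 0.27 (SD, n = 3), 50.8% ± 0.24, 50.9% ± 0.32 and 51.4% ± 0.13 in that order. The difference was 0.07 percentage points for sacy-1, 0.48 for mog-5 and 0.19 between the N2 sets, and no test was made on these means. With 1 library left out, the sacy-1 difference lay between -0.08 and 0.18 points, negative without sacy-1 replicate 2 or N2 az02 replicate 2, and against N2 az04 it was -0.13. For mog-5 it was 0.29 without N2 az04 replicate 2 and 0.44 to 0.57 without any other library, and between the N2 sets 0.05 to 0.38, the lowest without N2 az02 replicate 2 and the highest without N2 az04 replicate 2. Medians over introns instead of means differed by 2.49, 2.89 and -0.66 points. In single libraries the median ran from 36.8% to 43.9% in N2 az02 and from 39.5% to 45.4% in sacy-1. It ran from 38.0% to 40.1% in N2 az04 and from 39.4% to 43.6% in mog-5, so the groups overlapped in each comparison. The SD of a single intron within a group had a median of 1.18 points for N2 az02 and 0.94 for sacy-1, and of 0.93 for N2 az04 and 0.83 for mog-5. By mean retention in N2, it was 4.76 points in N2 az02 for the introns at 25 to 75% and 5.41 for those at 75 to 95%, against 0.78 for those under 5%.

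Each intron was tested with limma together with all other events of the catalogue, and was called changed at an adjusted p (Benjamini-Hochberg over the catalogue) below 0.05 and groups at least 15 percentage points apart. In sacy-1, 2 of 353 short introns tested were called, both with higher retention, while 0.714% of all 2382 events tested were called. Of the 422 longer introns tested 0 were called, with 39 at an unadjusted p below 0.05. Without a minimum difference 3 short introns passed, against 1.13% of all events. At an unadjusted p below 0.05 there were 28 short introns, or 7.93%, against 12.6% of all events, and the 21 of them that were higher made up 5.95% of the short introns tested, against 6.51% of all events. Against N2 az04 instead, 2 short introns were called in sacy-1, and neither was among the 2 called against N2 az02. The latter still passed the adjusted p against N2 az04 (limma adjusted p = 0.003112 and 0.03676). At 14.4 and 11.5 points they missed the minimum difference there. Of the new calls, 1 shared its donor with 1 of them. The share of short introns with a small p in sacy-1 was no larger than that of the catalogue as a whole.

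In mog-5, 0 of 386 short introns were called by limma, against 0.0400% of all events, and testing on an arcsine scale also gave 0. At an unadjusted p below 0.05 there were 33, or 8.55%, against 10.2% of all events, and the 23 of them that were higher made up 5.96% of the short introns tested, against 5.40% of all events. Between the 2 sets of N2 libraries, which share a genotype, 1 of 356 short introns was called, against 0.499% of all events. There 37 had an unadjusted p below 0.05, or 10.4%, against 18.7% of all events. So more short introns passed an unadjusted p between the wild-type sets than in either mutant. For the introns under 40 nt, the difference from N2 never reached 5 points in either mutant, as the plot of differences against length shows. Between the N2 sets 1 of the 59 such introns tested reached it, at -8.68 points. Of the 58 listed in all 12 libraries, 44 stood at exactly 99.9% throughout and so showed no difference.

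**Figure D2:**
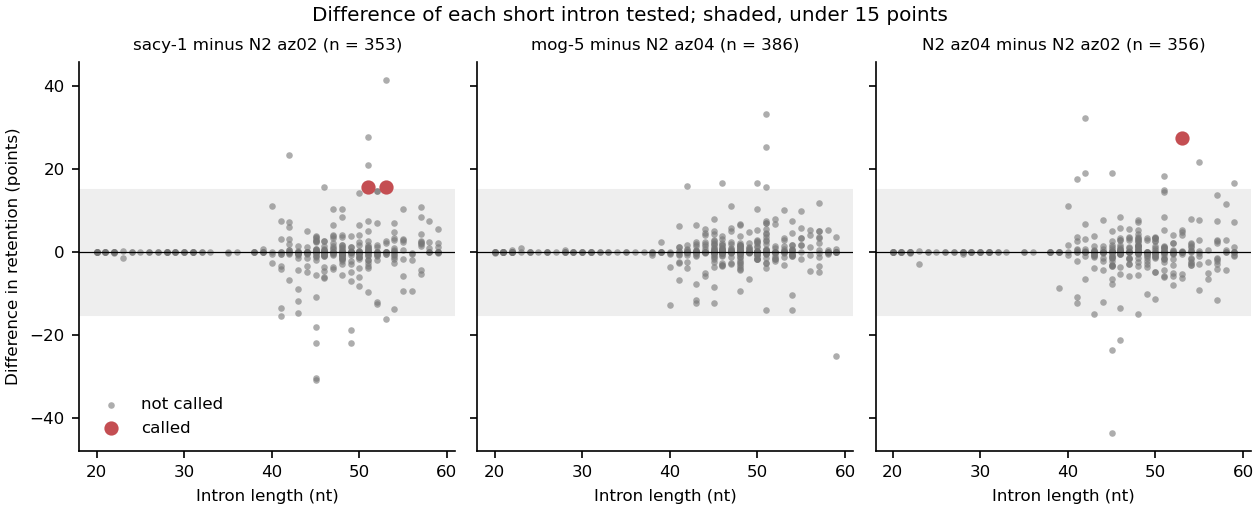
Difference in mean retention (y axis, percentage points) against intron length (x axis, nt) for each short intron tested in 3 comparisons of 3 against 3 libraries; red points are introns called changed, and the shaded band covers differences under 15 points. Called introns number 2 in sacy-1, 0 in mog-5 and 1 between the N2 sets.

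The 3 short introns that passed an adjusted p of 0.05 in sacy-1 had a feature in common: each shared its donor with another short intron whose acceptor lay 3 to 9 nt further upstream. Of all short introns, 26 formed 13 such donor-sharing pairs, with acceptors 2 to 12 nt apart, and in 11 pairs the distance was a multiple of 3. Among the 13 longer members, all tested in sacy-1, 3 passed the adjusted p, and among the other 340 short introns tested 0 did. These pairs were looked for after the calls were seen, so the counts are a description. At the 3 pairs with a passing member, the library-intron catalogue, the authors' other list, held the same choice as an alternative 3′ splice site, measured as the share of spliced molecules that used the upstream acceptor. When the upstream acceptor is used, the few bases between both acceptors become exon, although they belong to the longer intron. How the authors' counting treats molecules spliced to either acceptor in the retention of the other intron is not stated. Its part in the differences below, of the longer or the shorter intron, was not tested.

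At the pair on chromosome III, plus strand, with a donor end at 5505164, retention of the 51-nt intron (to 5505214) was 3.92%, 4.80% and 4.55% in N2 az02 and 21.4%, 20.1% and 18.9% in sacy-1. In N2 az04 it was 5.85%, 5.16% and 6.16%, and in mog-5 9.95%, 11.3% and 8.93%. Each mutant thus lay wholly above its N2 set, and sacy-1 wholly above mog-5. The rise in sacy-1 was 15.7 points (SE 0.73, n = 3 against 3, limma adjusted p = 0.004902), and the mog-5 difference was 4.34 points (SE 0.71, limma adjusted p = 0.1587). The mutant effects differed by 11.4 points (limma interaction, adjusted p = 0.001392), which is under the 15 points needed for a call. Without sacy-1 replicate 2 the sacy-1 adjusted p was 0.0535, and without N2 az02 replicate 1 it was 0.0551. Against N2 az04 the difference was 14.4 points.

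The 45-nt intron with the same donor, to 5505208, went the other way. Its retention was 24.4%, 22.6% and 34.4% in N2 az02 and 5.03%, 5.49% and 5.43% in sacy-1, with 30.2%, 27.5% and 26.3% in N2 az04 and 13.6%, 15.4% and 17.96% in mog-5. No mutant library reached the lowest of its N2 set. The difference was -21.8 points in sacy-1 (SE 3.50, limma adjusted p = 0.1016) and -12.3 in mog-5 (SE 1.62, limma adjusted p = 0.1228), so neither passed. In sacy-1 it passed when all 12 libraries were fitted together (limma adjusted p = 0.003687) and without N2 az02 replicate 3, the highest library (-18.2 points, limma adjusted p = 0.01124). It also passed against N2 az04 (-22.7 points, limma adjusted p = 0.002755) and against all 6 N2 libraries (limma adjusted p = 0.003807). The kept score of this intron was 51.4 per mille in sacy-1 against 241.5 in N2 az02, and its spliced score 914.9 against 643.4.

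Use of the upstream of these acceptors, 6 nt apart, was 4.48%, 5.59% and 4.35% in N2 az02 against 37.0%, 34.8% and 32.9% in sacy-1, and 5.93%, 5.23% and 6.64% in N2 az04 against 14.4%, 15.6% and 11.8% in mog-5. It rose by 30.1 points in sacy-1 (limma adjusted p = 0.0004943) and by 7.99 in mog-5 (limma adjusted p = 0.04571, under 15 points and so not called). The deposited scores of the 51-nt intron were also set side by side. In sacy-1 the score of the kept form was 136.3 per mille against 42.4 in N2 az02, and that of the spliced form 542.2 against 915.7. Both scores together came to 678.6 per mille in sacy-1 and 958.0 in N2 az02, so the ratio had a smaller base in the mutant. What the missing part holds is not stated, so these scores do not show which form changed in amount.

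**Figure D3:**
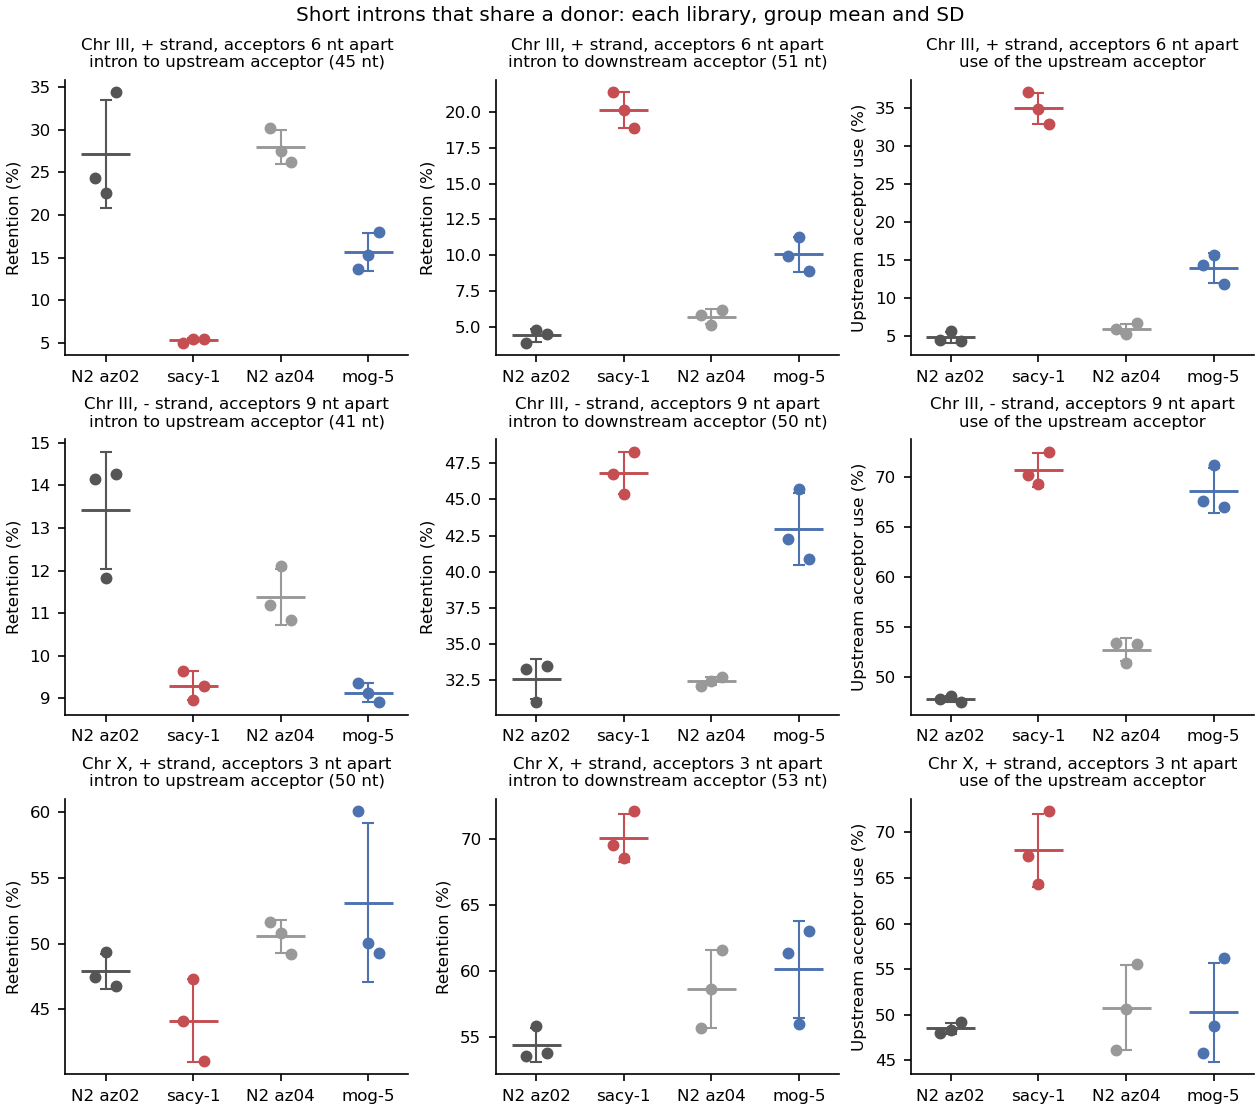
Each library (points), group mean (line) and SD (error bar, n = 3) at 3 donor-sharing pairs, one per row: retention (%) of the intron to the upstream acceptor, retention (%) of the intron to the downstream acceptor, and use (%) of the upstream acceptor; y axes do not start at 0. In the middle and right columns all 3 sacy-1 libraries lie above all N2 az02 libraries in each row, and mog-5 lies above N2 az04 in the upper 2 rows.

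The pair on chromosome III, minus strand, with a donor end at 4492778 showed differences of the same sign in both mutants, of which those of the retained introns passed an adjusted p in sacy-1 at the 50-nt intron alone. Retention of the 50-nt intron (from 4492729) was 33.3%, 31.0% and 33.5% in N2 az02 and 46.8%, 45.4% and 48.3% in sacy-1, and 32.1%, 32.5% and 32.7% in N2 az04 and 42.3%, 45.7% and 40.9% in mog-5. The groups did not overlap in either comparison. The rise of 14.3 points in sacy-1 (SE 1.10, limma adjusted p = 0.02161) passed the p but not the minimum difference. Leaving out any 1 of the 6 libraries ended that pass (limma adjusted p = 0.05531 to 0.1176). The 10.5 points of mog-5 (SE 1.38, limma adjusted p = 0.1228) passed neither, although its p passed in 1 fit of all 12 libraries (limma adjusted p = 0.005091). The interaction was 3.72 points (limma adjusted p = 0.557).

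Its 41-nt partner, from 4492738, stood at 14.2%, 11.8% and 14.3% in N2 az02, 9.65%, 8.96% and 9.29% in sacy-1, 11.2%, 12.1% and 10.8% in N2 az04 and 9.36%, 9.12% and 8.92% in mog-5. Each mutant lay below its N2 set without overlap, by 4.12 points in sacy-1 (limma adjusted p = 0.1379) and 2.25 in mog-5 (limma adjusted p = 0.1738). Use of the upstream acceptor, 9 nt from the other, had a mean of 47.8% in N2 az02 and 70.7% in sacy-1 (22.9 points, limma adjusted p = 0.0005141), and of 52.7% in N2 az04 and 68.7% in mog-5 (15.9 points, limma adjusted p = 0.0169). This was called changed in both mutants, although the 50-nt intron was called in neither. Here too the spliced score of the 50-nt intron was lower in sacy-1, at 273.7 per mille against 442.8, and the kept score was 241.0 against 214.0.

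On chromosome X, plus strand, with a donor end at 10781037, the 53-nt intron (to 10781089) was kept at 53.5%, 55.9% and 53.8% in N2 az02, 69.6%, 68.6% and 72.1% in sacy-1, 55.7%, 58.7% and 61.6% in N2 az04 and 61.4%, 56.0% and 63.0% in mog-5. Sacy-1 lay above all other libraries, and mog-5 overlapped N2 az04. The rise in sacy-1 was 15.7 points (SE 1.22, limma adjusted p = 0.02161), and the mog-5 difference was 1.5 points (SE 2.6, limma adjusted p = 1). The interaction of 14.2 points did not pass (limma adjusted p = 0.1421), so a difference between the mutants was not shown. The call rested on all 6 libraries, since leaving out any 1 of them ended it, with differences of 14.7 to 16.5 points. Against N2 az04 the difference was 11.5 points and against all 6 N2 libraries 13.6.

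The 50-nt partner, to 10781086, stood at 47.5%, 49.4% and 46.8% in N2 az02 and 44.1%, 47.3% and 41.0% in sacy-1, which overlapped, and the difference of -3.74 points had a limma unadjusted p of 0.1102. Upstream acceptor use, 3 nt from the other, went from a mean of 48.5% to 68.0% in sacy-1 (19.6 points, limma adjusted p = 0.008408) with 50.8% for N2 az04 and 50.2% for mog-5. In this 53-nt intron the kept score was 556.8 per mille in sacy-1 against 410.3 in N2 az02, and the spliced score 237.4 against 343.8.

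Over all 13 donor-sharing pairs, the shorter intron was lower and the longer one higher in 7 pairs in sacy-1, in 6 in mog-5 and in 3 between the N2 sets. The reverse was seen in 1, 1 and 0 pairs. These counts, and the medians that follow, include the 3 pairs above, whose values led to the search for pairs. All 3 are among the 7 in sacy-1, and those on chromosome III are among the 6 in mog-5. None of them is among the 3 between the N2 sets, so the larger counts in the mutants cannot be read apart from that choice. In sacy-1 the median difference was -2.18 points for the shorter and 1.76 for the longer intron, in mog-5 -0.16 and 1.43, and between the N2 sets -0.38 and 1.30. Over all short introns tested the median difference was 0 points in each comparison. Apart from the 3 pairs above, the lowest p in each mutant was that of a 57-nt intron on chromosome III, minus strand, 3870250 to 3870306, at 4.48 points higher in sacy-1 (limma unadjusted p = 0.0151) and 5.21 in mog-5 (limma unadjusted p = 0.01265). Its 48-nt partner differed by -2.18 and 2.30 points. Of the 6 pairs that shared an acceptor instead, 5 were tested in sacy-1, and the shorter was lower with the longer higher in 1.

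**Figure D4:**
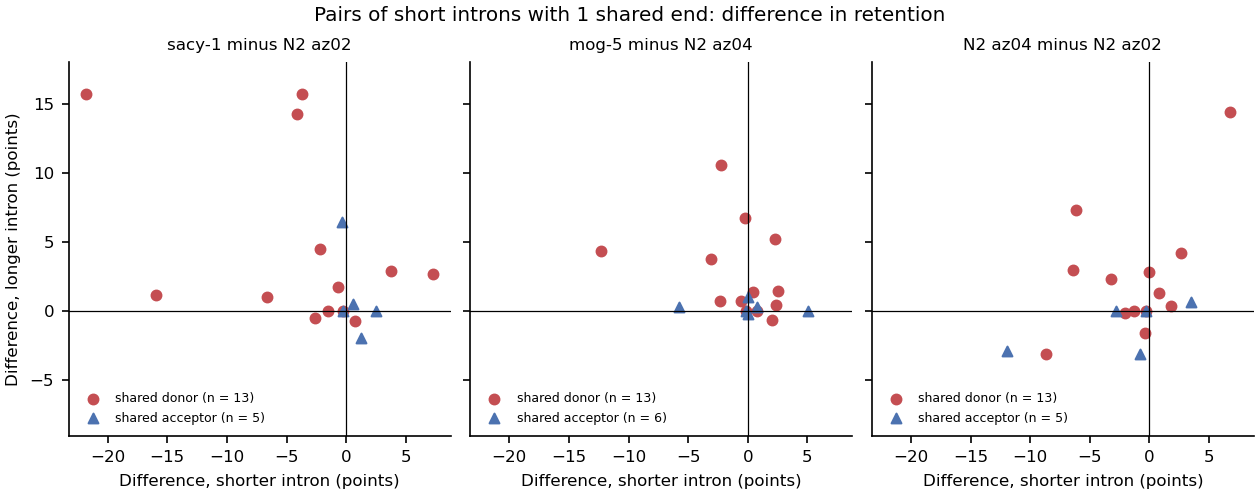
Difference in retention (percentage points) of the longer intron (y axis) against that of the shorter intron (x axis) for pairs of short introns with a shared donor (circles, 13 pairs) or a shared acceptor (triangles, 6 pairs, 5 of them tested in sacy-1 and between the N2 sets). Circles in the upper left, shorter lower and longer higher, number 7 in sacy-1, 6 in mog-5 and 3 between the N2 sets. The 3 pairs whose values led to the search for pairs are among the 7 in sacy-1.

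In all, 52 short introns were identical to an intron of 51 events in the library-intron catalogue, 35 in alternative 3′ and 22 in alternative 5′ events. In sacy-1, 4 of the 50 such events tested were called by limma, all of them alternative 3′ events, against 6.33% of all events of that catalogue. In mog-5 it was 1 of 51, against 1.30%. Besides the 3 pairs above, the remaining event in sacy-1 held a 46-nt intron on chromosome V, plus strand, 8612731 to 8612776, named after its values were seen. Use of its acceptor, the upstream of 2 that lay 6 nt apart, rose from a mean of 70.4% to 87.4% (limma adjusted p = 0.009446). Its own retention was 31.2%, 25.8% and 32.3% in N2 az02 and 23.3%, 21.8% and 25.9% in sacy-1, which overlapped narrowly, at -6.11 points (SE 2.24, limma adjusted p = 0.3865).

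The other introns with the smallest p in sacy-1 did not pass. A 54-nt intron on chromosome X, plus strand, 11021784 to 11021837, stood at 70.1%, 72.3% and 73.0% in N2 az02 and 55.7%, 61.4% and 57.3% in sacy-1, without overlap, a difference of -13.7 points (SE 1.82, limma adjusted p = 0.08909). In mog-5 it was 62.4%, 61.5% and 51.3% against 76.7%, 63.8% and 65.7% in N2 az04, again without overlap (-10.4 points, limma adjusted p = 0.6004). A 57-nt intron on chromosome I, minus strand, 2573944 to 2574000, was 8.53 points higher in sacy-1 (SE 1.15, limma adjusted p = 0.08947), at 62.1% to 64.2% against 53.5% to 56.8%. A 45-nt intron on chromosome X, minus strand, 8828082 to 8828126, was 2.96 points higher in sacy-1 (SE 0.55, limma adjusted p = 0.1339) and 0.83 lower in mog-5, with an interaction of 3.79 points (limma adjusted p = 0.07536).

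In mog-5 the smallest p belonged to a 54-nt intron on chromosome III, minus strand, 14687 to 14740. Its retention was 7.05%, 6.39% and 6.56% in N2 az04 and 10.9%, 11.1% and 12.02% in mog-5, a difference of 4.68 points (SE 0.38, limma adjusted p = 0.1011). The 3 N2 az02 libraries stood at 9.32%, 5.56% and 9.94%, so the wild-type sets together spread almost up to the mog-5 values. A 48-nt intron on chromosome IV, minus strand, 12145079 to 12145126, was 6.50 points higher than N2 az04 (SE 1.14, limma adjusted p = 0.1851), at 10.9%, 11.1% and 13.3%, and N2 az02, at 9.14%, 13.2% and 9.82%, overlapped it. A 48-nt intron on chromosome IV, plus strand, 3578733 to 3578780, was 9.44 points lower (SE 1.46, limma adjusted p = 0.1454), at 68.3% to 73.2% against 79.1% to 81.1%, and N2 az02 spread from 68.4% to 86.5%.

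A 45-nt intron on chromosome IV, minus strand, 11681832 to 11681876, left the 99.9% level in mog-5 alone among these groups. It stood at 99.9% in all 9 libraries of the other groups and at 95.8%, 96.3% and 97.1% in mog-5, a difference of -3.50 points (SE 0.36, limma adjusted p = 0.1011). The difference between both mutant effects was 3.50 points (limma interaction, adjusted p = 0.003215), and with an SD of 0 in 3 groups that p rests on mog-5 and on the spread of other events. The upstream exonic stretch listed for it was 5 nt long. It and the 51-nt intron on chromosome III were the 2 short introns of 352 that passed the interaction without a minimum difference, against 0.420% of all events. With the minimum 0 were called, against 0.252%, and 25 had an unadjusted p below 0.05, or 7.10%, against 9.16%.

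The 2 short introns that passed an adjusted p between the wild-type sets both stood at the floor in N2 az02. The widest difference between these sets, -43.61 points, did not pass. A 53-nt intron on chromosome II, minus strand, 7753392 to 7753444, stood at 0.1% in all 3 N2 az02 libraries and at 21.6%, 32.5% and 28.6% in N2 az04, and was the 1 called (27.5 points, SE 3.04, limma adjusted p = 0.04772). In sacy-1 its values were 0.1%, 99.9% and 25%, spanning the whole scale, and in mog-5 26.7%, 33.3% and 33.3%. The call was lost in 1 fit of all 12 libraries, with retained introns alone, and without any library other than N2 az04 replicate 1. A 46-nt intron on chromosome I, plus strand, 621172 to 621217, stood at 0.1% in all 6 libraries of N2 az02 and sacy-1, and at 10.1%, 8.83% and 6.67% in N2 az04 and 7.23%, 6.48% and 9.70% in mog-5. Its difference between the N2 sets was 8.44 points (SE 0.96, limma adjusted p = 0.04772), under the minimum for a call, and it followed the library set and not the genotype.

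Differences at the floor ran in 1 direction: 7 short introns stood at 0.1% in all 3 N2 az02 libraries and above 1% in all 3 N2 az04 libraries, and 0 the other way round. The same count was not made for longer introns or all events, so it is not shown to be particular to short introns. The whole catalogue also had fewer events listed in an N2 az02 library, 2459 to 2488, than in an N2 az04 library, 2543 to 2567. Values at exactly 0.1% numbered 20 to 29 in an N2 az02 library and 19 to 20 in a sacy-1 library, but 3 to 9 in an N2 az04 library and 3 to 7 in a mog-5 library. The next smallest p between the N2 sets belonged to a 45-nt intron on X (3845326 to 3845370), 2.73 points higher in N2 az04 (limma adjusted p = 0.05642), and a 42-nt intron on III (4581331 to 4581372), 6.74 points higher (limma adjusted p = 0.05882).

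**Figure D5:**
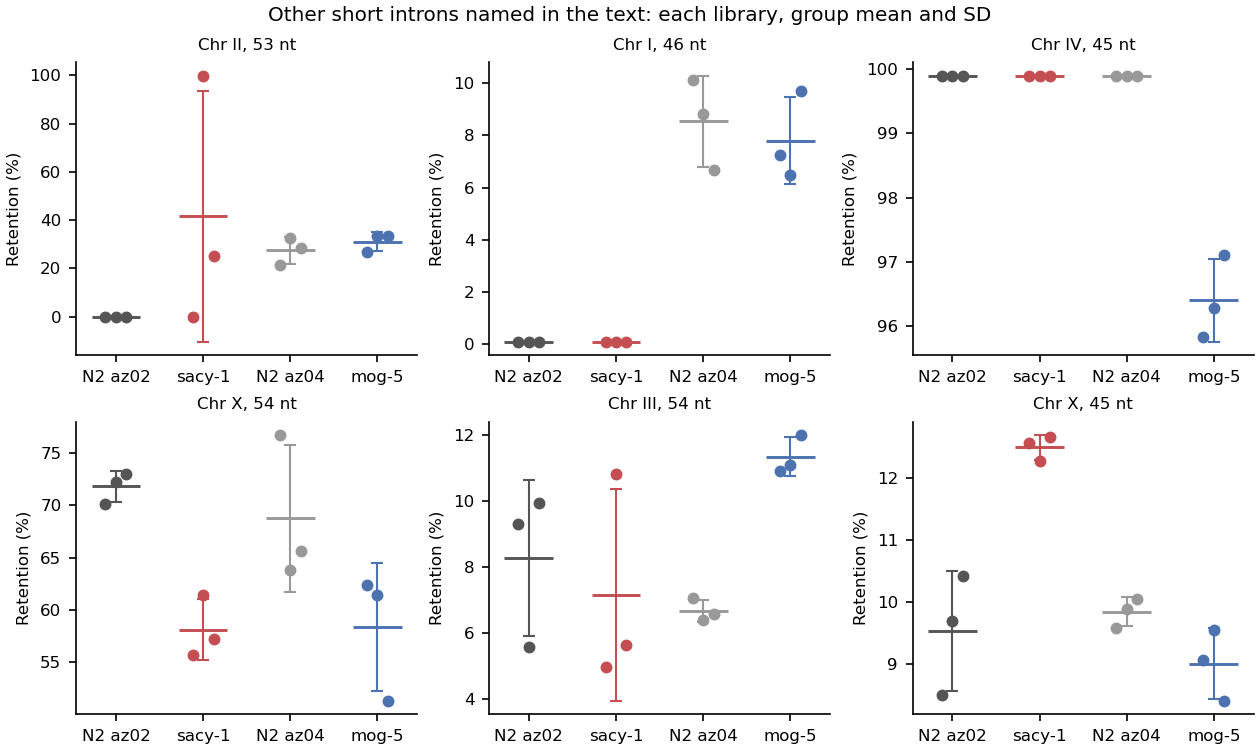
Retention (y axis, %) of 6 further short introns in each library (points) with group mean (line) and SD (error bar, n = 3); y axes differ and do not all start at 0. The 46-nt intron on chromosome I is at 0.1% in the 6 libraries of N2 az02 and sacy-1, and the 45-nt intron on chromosome IV leaves 99.9% in mog-5.

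Several of the widest ranges between group means came from introns whose libraries also spread widely within a group. A 45-nt intron on chromosome II, plus strand, 1058717 to 1058761, had group means 43.6 points apart, and its N2 az02 libraries alone ran from 50% to 99.9%. A 42-nt intron on chromosome V, 8605242 to 8605283, ranged over 32.4 points, with N2 az02 at 25%, 77.5% and 99.9%. For a 51-nt intron on chromosome II, 4227857 to 4227907, the range was 30.7 points, and mog-5, at 96.2%, 96.2% and 95.7%, lay above N2 az04 at 80.3%, 88.4% and 72.3% (15.7 points, limma adjusted p = 0.3466). A 42-nt intron on chromosome V, 4684733 to 4684774, ranged over 35.2 points and was 16.0 points higher in mog-5 (limma adjusted p = 0.4766). Against N2 az02 instead, 3 short introns were called in mog-5, among them this intron and the 53-nt intron on chromosome II, 7753392 to 7753444. At least 15 points of difference were reached by 15 of 353 short introns in sacy-1, 7 of 386 in mog-5 and 12 of 356 between the N2 sets. Of these 2, 0 and 1 were called. Over all events tested, 15 points were reached by 98 of 2382, 53 of 2498 and 141 of 2405.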

How the data were processed

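Per the file headers, the authors deposited 2 lists of splicing events per library on build ce10, with a per mille score for the included and the excluded form of each event. Bowtie2, STAR and SAMtools are listed, with no version, in the submitters' processing notes; how the scores were made is not given in the sources used here. Read totals were not used here, so depth and its precision are unknown.

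Retention was 100 times the included score divided by the total of the pair. Events listed in all 6 libraries of a comparison entered a limma fit (version 3.58.1, R 4.3.3) with no covariate; p-values were adjusted by Benjamini-Hochberg over the whole catalogue, and events called at an adjusted p below 0.05 and at least 15 points; the code was tested on simulated data. An SD of 0 in both groups leaves the p resting on other events.

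The introns and lists were chosen with earlier results of these data known. Introns named are those called, the 8 with the smallest p per mutant, the 4 between N2 sets, the 3 for the interaction, the 5 highest and the shortest, the 5 widest ranges, those in called library-intron events and the limit lengths. The 40-nt limit, the pairs and the scores by form were chosen after values were seen. Alternatives covered scale, fit, filters, N2 set and each library left out. Sequences were not used here, for want of a ce10 genome.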

Additional observations from a re-analysis of the deposited data

Results flagged for a closer look

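Of the short introns, 0 were called by the limma interaction over all 12 libraries, which tests the difference between both mutant effects. Without the minimum difference of 15 points, 2 passed its adjusted p. At the 45-nt intron on chromosome IV, 11681832 to 11681876, the effects differed by 3.50 points (adjusted p = 0.003215), with 0 points in sacy-1 and -3.50 in mog-5. The mog-5 difference alone did not pass. Outside mog-5 the groups had no spread at this intron, so the interaction p rests on mog-5 and on other events. At the 51-nt intron on chromosome III, 5505164 to 5505214, they differed by 11.36 points (adjusted p = 0.001392), with 15.7 points in sacy-1 and 4.34 in mog-5.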

How the results depend on the processing

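The count of short introns called in sacy-1, 2, became 1 with a variance trend and ranged from 0 to 3 when 1 library was left out; it was 0 without sacy-1 replicate 2 and without N2 az02 replicate 1. Against N2 az04 it was again 2, of which 0 were shared. The 2 introns called against N2 az02 passed the adjusted p there too, but not the minimum difference. For mog-5, 0 became 3 against N2 az02 and ranged from 0 to 1 with 1 library left out. Between the N2 sets, 1 became 2 with no minimum difference, 0 in 1 fit of all 12 libraries and 0 with retained introns alone, and ranged from 0 to 2 with 1 library left out. For the interaction, 0 became 2 with no minimum difference. Library medians over introns overlapped between the groups of each comparison. Taking the median instead of the mean over introns moved the group difference to 2.49 points in sacy-1, 2.89 in mog-5 and -0.66 between the N2 sets. The cause of these changes was not tested. No direction that passed a test turned under the alternatives run. Taking the last event of each intron gave no value, since no 2 events share an intron. No paired analysis was possible because the titles give each library its own number and replicate numbers follow accession order. Read depth is unknown, so how far it limits a value could not be measured.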
